A study of Vigna radiata with 42 samples.

Results

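The second day of a second salt exposure was followed in mung bean leaves (the grain legume Vigna radiata, of which cultivar Weilv 9 was grown) by comparing 48 h with 24 h. The T1 seedlings used for this had been pre-conditioned: they spent 24 h in 100 mM NaCl, then 48 h in nutrient solution without salt, and then returned to 100 mM NaCl. The comparison takes 6 of the 42 libraries of the series, 3 at 24 h and 3 at 48 h of the final salt, both at the same time of day under 16 h of light and 8 h of dark. T2 seedlings, which met 100 mM NaCl without an earlier exposure, provide the same pair of times in 6 libraries for comparison. All 12 libraries come from the first fully expanded true leaves of plants grown in half-strength Murashige and Skoog solution, and all were made from poly(A) RNA. No plants without salt were sampled beside them at 24 or 48 h, so salt, plant age and time in solution cannot be told apart in the step from 24 to 48 h. Of 28740 gene IDs in the table, 18022 reached a value of 1 in 3 or more of the 6 libraries and were tested.

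Salt reaches a leaf in overlapping phases. The loss of water potential around the root acts first, through osmotic and abscisic acid signalling, while sodium and chloride build up in the leaf more slowly and call on ion transport into the vacuole, compatible solutes and protection of the photosynthetic machinery. A first exposure followed by recovery can change how a plant answers the next, which is called priming or acclimation. The table carries gene IDs without gene names, and 0 of its IDs occur in the reference gene list, so no function is given to any gene here. Genes are grouped instead by their changes in T2. The T2 means do not enter the T1 difference, but the spread within all 42 libraries enters every p-value, T1 and T2 alike; with only the compared groups fitted, 6476 genes were called in T1 in place of 7161.

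Values are the authors' normalized expression signal, which they call TPM although the libraries do not share 1 total, and changes are given on the scale log2(value + 1), which understates the change of genes near 0. Relative depth of the 6 libraries, read from the steps between low values, ran from 0.785 to 1.17 times the median library. The libraries of the 2 times did not mix: the mean correlation across genes with the own group was 0.972 to 0.975 at 24 h and 0.979 to 0.984 at 48 h, and with the other time it was 0.907 to 0.945. T1 48 h replicate 3 lay nearest to 24 h, at 0.945, against 0.907 and 0.920 for replicates 1 and 2. T1 24 h replicate 1 had 5.38% of its signal in IDs with a Pt prefix, against 0.170% to 0.788% in the other 5. The summed signal of a library was 1203584, 1089095 and 1037000 at 24 h and 927710, 948667 and 980470 at 48 h. The totals did not overlap (exact permutation test, two-sided p = 0.1, the smallest that 3 against 3 allows), and any rescaling to equal totals therefore shifts every gene towards a rise.

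Leaf transcripts were widely rearranged between the first and the second day of the second salt. Of 18022 genes, 7161 changed (39.7%), with 3964 higher (22.0%) and 3197 lower (17.7%) at 48 h, each at an adjusted p under 0.05 in limma. Most changes were moderate: the median log2 change was 0.62 among the genes that rose and -0.67 among those that fell, against 0.01 over all genes tested. At least 2-fold rises were called in 918 genes (5.09%) and at least 2-fold falls in 822 (4.56%). A 4-fold change was reached by 169 genes that rose and 96 that fell. The largest rise was 5.78 and the largest fall -5.81 on the log2 scale.

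The 3 values at 48 h all lay above the 3 at 24 h in 5005 genes (27.8%) and all below in 4560 (25.3%). That held for 3722 of the 3964 genes called higher and for 3047 of the 3197 called lower. When each of the 6 libraries was left out in turn, 4394 of the 7161 calls (61.4%) held in the same direction every time, among them 824 of the 918 larger rises and 613 of the 822 larger falls. The balance of directions depends on scaling. As deposited, 55.4% of called genes were higher at 48 h; after scaling all libraries to 1 common total it was 78.8%, with 6340 genes higher and 1704 lower, 1393 and 512 of them at least 2-fold, and the median change of all genes moved to 0.21. After median-of-ratios scaling the share was 54.1% and after quantile normalization 51.5%.

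**Figure D1:**
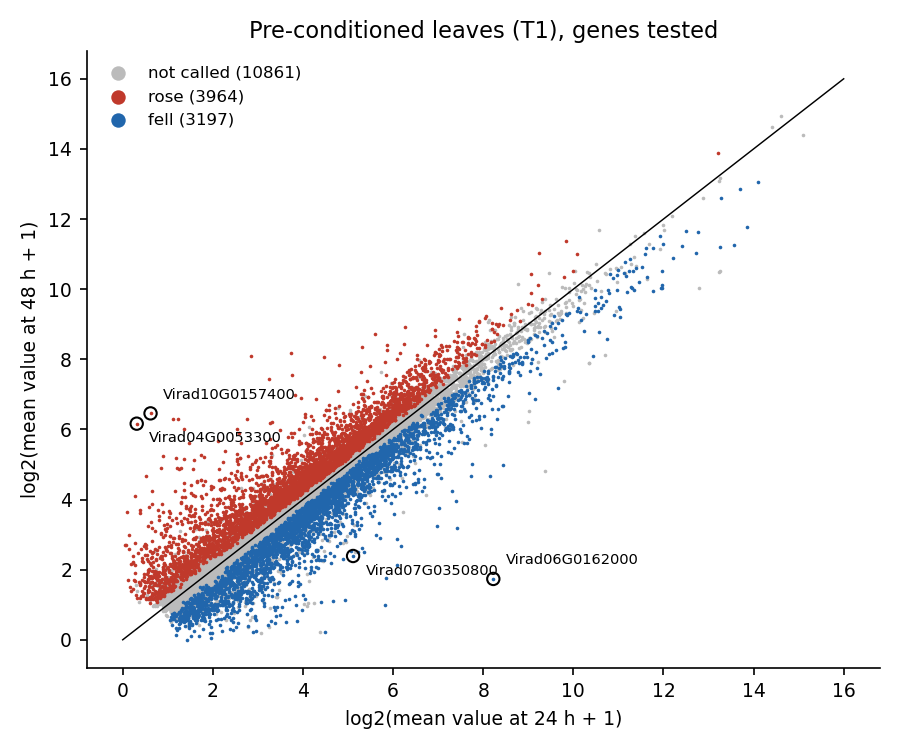
Mean level of each of the 18022 tested genes at 24 h (x axis) and 48 h (y axis) in pre-conditioned leaves, both as log2(mean value + 1), with genes that rose in red, genes that fell in blue and genes not called in grey. Circles mark the 4 genes described individually. The blue points dominate at the upper end. There 86 of 231 genes with a mean of at least 500 fell and 15 rose (17.7% and 22.0% of all genes).

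Abundant transcripts went down. Among 231 genes with a mean of at least 500 over the 6 libraries, 86 fell and 15 rose. These were 37.2% and 6.49%, against 17.7% and 22.0% of all genes, and the median log2 change of the 231 was -0.41. Between 20 and 100 more genes rose than fell, with 1561 that rose and 944 that fell out of 5780 (27.0% and 16.3%). The 100 genes with the highest mean over the T2 libraries, a list that uses none of the 6 libraries, showed the same fall: 57 fell, 4 rose and the median log2 change was -0.68. Their summed signal was 477500, 401600 and 372000 in the 24 h libraries and 250900, 273700 and 297600 in the 48 h libraries. Every 48 h library thus lay below every 24 h library. The list includes Pt or Mt IDs, as 98 genes remained without them. The first 24 h sum belongs to T1 24 h replicate 1, the library high in Pt signal, and the part those IDs held is not given. In the T2 step the median log2 change of the same 100 genes was -0.41. With equal totals 44 of the 100 fell and 6 rose, against 9.5% and 35.2% of all genes. Quantile normalization gives all libraries the same upper values by construction. It left 26 that fell and 18 that rose with a median of -0.12. It turned the genes of at least 500 to 49 that rose and 42 that fell. Of all genes, 21.5% then rose and 20.2% fell. Fewer cells of a type and less RNA per cell cannot be told apart in whole leaves.

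The redistribution of signal can be read per library. Genes that rose held 10.1%, 11.2% and 12.7% of all signal in the 24 h libraries and 24.8%, 23.2% and 19.8% in the 48 h libraries. Genes that fell held 31.6%, 37.5% and 33.6% at 24 h and 18.6%, 19.0% and 21.9% at 48 h. These genes were chosen for that difference. The same 2 sets shifted the same way in T2, whose levels did not enter the choice although the spread within its groups did. There the first set went from 12.8%, 11.0% and 12.9% to 18.0%, 19.7% and 17.3%, and the second from 35.9%, 37.8% and 36.3% to 25.3%, 22.8% and 27.7%.

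A few genes were near 0 on 1 day and present on the other. There were 35 genes below 0.5 in all 24 h libraries and at least 1 in all 48 h libraries, which is 0.194% of the genes tested. Their median level at 48 h was 2.24 and the highest was 70.7. The reverse pattern was seen in 30 genes (0.167%), with a median level at 24 h of 2.25 and a highest of 21.4. In T2, 11 of the tested genes (0.0610%) met the first pair of thresholds and 12 (0.0666%) the second, among them 3 of the 35 and 2 of the 30. The filter on T1 values admits such genes more readily from T1 than from T2, so these shares are a description.

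The genes described individually were chosen among called genes without overlap of values and with a call without each of the 6 libraries. Virad04G0053300 and Virad07G0350800 were further chosen for the largest called difference between the steps. Those traits are therefore a description. The gene with the largest rise was Virad10G0157400. It stood at 0.511, 0.622 and 0.469 in the 24 h libraries and at 120.3, 81.0 and 59.3 in the 48 h libraries. The groups were far apart, with means of 0.534 ± 0.0791 and 86.9 ± 30.9 (SD, n = 3). The log2 change was 5.78 (SE 0.65, adjusted p = 7.94e-08), and 5.52 to 6.02 with any 1 of the 6 libraries left out. With only the compared groups fitted in limma, the adjusted p was 0.00029. This transcript was low at 0 h as well, at 0.583 ± 0.374, and had passed through 67.2 ± 53.2 at 1 h and 26.2 ± 15.8 at 12 h of the second salt. Its low values therefore fall at 0 and 24 h and its high values at the times between and at 48 h. In T2 it went from 3.30 ± 0.499 at 24 h to 182 ± 25.4 at 48 h, a log2 change of 5.41 (SE 0.65, adjusted p = 3.94e-07). The difference between the steps of the 2 treatments was 0.37 (SE 0.93, adjusted p = 0.843).

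Virad04G0053300 rose at 48 h in the T1 libraries and was below 1 in all libraries of every other group. It therefore passed the filter only through the group where it was high. A gene high only in T2 at 48 h would not have been tested, so its difference between the treatments is a description. It was at 0.135, 0.493 and 0.0930 in the 24 h libraries and at 161, 18.2 and 32.8 in the 48 h libraries. All 3 values at 48 h were high, but they differ widely among themselves (mean 70.7 ± 78.7, SD, n = 3). The log2 change was 5.26 (SE 0.38, adjusted p = 2.27e-11), and 4.38 to 5.91 with 1 library left out. The small SE draws on the other groups, where the gene is near 0: when only the 2 groups were fitted the adjusted p was 0.00501. In T2 it stood at 0.141, 0.0840 and 0.264 at 24 h and at 0.809, 0.904 and 0.566 at 48 h, a log2 change of 0.60 (SE 0.38, adjusted p = 0.232). The T1 step was larger than the T2 step by 4.67 (SE 0.53, adjusted p = 1.36e-05), and the difference was called in all 12 fits that left out 1 library of the 2 steps. Those fits keep the groups near 0. With only the compared groups fitted in limma, the adjusted p of the difference was 0.015, and 0.025 with a replicate block.

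The largest fall was that of Virad06G0162000. Its values were 653.7, 190.1 and 50.4 at 24 h and 1.90, 2.55 and 2.54 at 48 h. The 24 h libraries spread over a wide range (298 ± 316, SD, n = 3) but all lay far above those at 48 h (2.33 ± 0.369). The log2 change was -5.81 (SE 0.68, adjusted p = 1.28e-07), and -6.74 to -4.90 with 1 library left out. With only the compared groups fitted in limma, the adjusted p was 0.0052. The gene had been at 5.34 ± 4.47 at 0 h and 0.596 ± 0.214 at 12 h. Among the sampled times it was high at 24 h alone, and how long this lasted between 12 and 48 h is unknown. The high level at 24 h was present in T2 too, with 263 ± 148 at 24 h and 2.27 ± 0.149 at 48 h (log2 change -6.18, SE 0.68, adjusted p = 6.55e-08). The steps differed by 0.37 (SE 0.96, adjusted p = 0.847), a sign that turned when T1 24 h replicate 3 was left out (-0.55).

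Virad07G0350800 fell in T1 from 57.2, 30.7 and 12.8 at 24 h to 5.17, 4.71 and 2.84 at 48 h. The groups did not overlap, which the choice of genes required, and the log2 change was -2.52 (SE 0.60, adjusted p = 0.0014). With only the compared groups fitted in limma, the adjusted p was 0.011. In T2 the gene was already low at 24 h, at 4.62, 4.74 and 5.60, and stood at 6.99, 4.58 and 6.68 at 48 h, a log2 change of 0.23 (SE 0.60, adjusted p = 0.802). The steps differed by -2.75 (SE 0.85, adjusted p = 0.0422). That call was fragile: it was lost in 11 of 12 fits that left out 1 library, with adjusted p-values from 0.0224 to 0.118. The difference lies in the 24 h levels, where T1 was at 33.6 ± 22.4 and T2 at 4.99 ± 0.534 (SD, n = 3); both treatments had been low at 12 h, at 4.87 ± 1.91 and 3.65 ± 2.66.

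**Figure D2:**
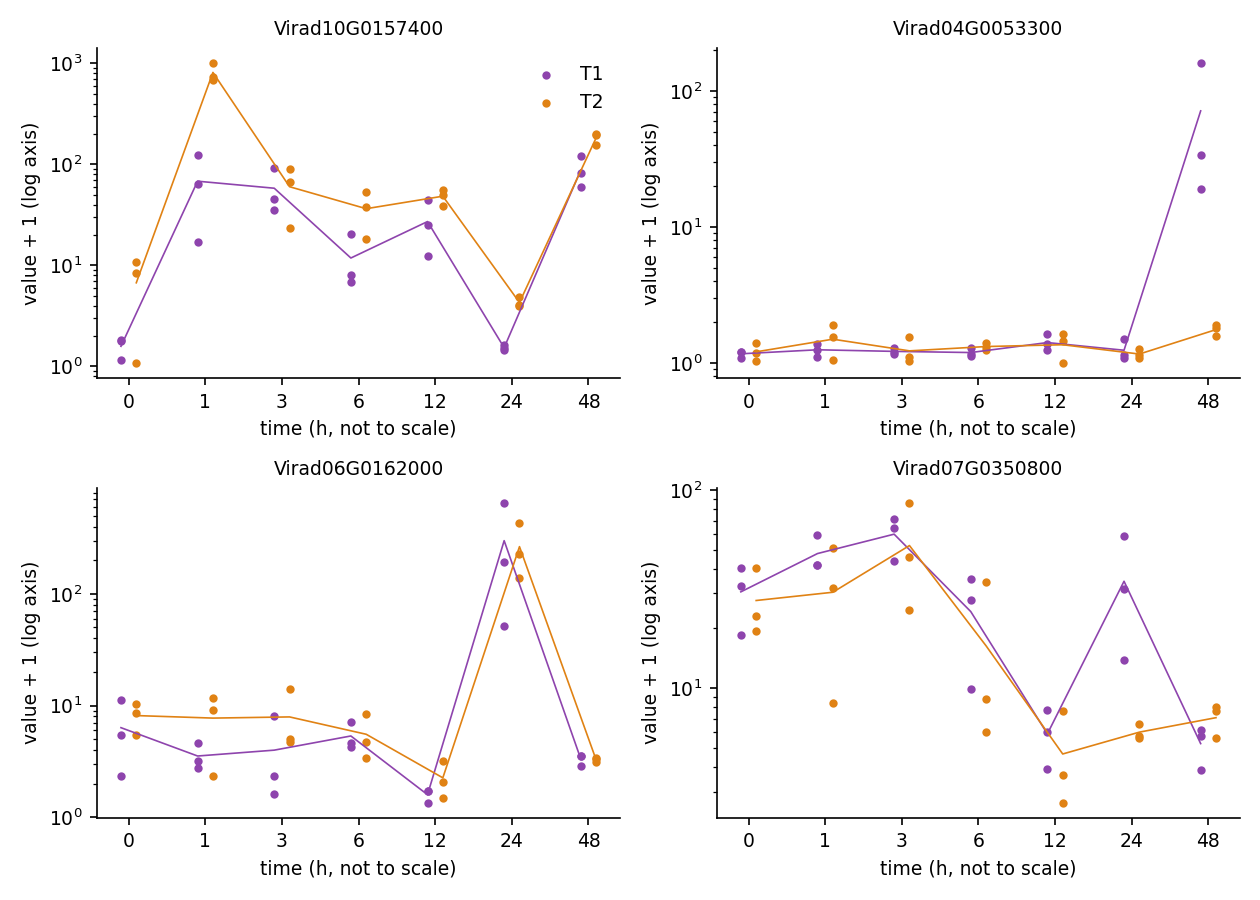
Value + 1 on a log axis in every library at 7 times after the onset of the final salt, for the 4 genes described, with T1 in purple and T2 in orange; points are libraries and lines join group means. Virad10G0157400 and Virad06G0162000 move alike in both treatments from 24 to 48 h, while Virad04G0053300 reaches 18.2 to 161 in T1 and stays below 1 in T2 at 48 h.

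How the T1 step relates to changes in T2 was asked with lists. Each holds tested genes called and changed at least 2-fold against T2 at 0 h. No plants without salt were sampled beside the later times. Salt and time in solution therefore cannot be told apart in these lists, nor salt and time of day at 1, 6 and 12 h. The lists hold only genes that passed the filter on the 6 T1 libraries. Of the genes raised in the first hour of direct salt, 54.7% rose in T1 between the first and the second day. Of 1027 genes raised in T2 at 1 h (5.70% of genes tested), 562 rose in T1 from 24 to 48 h and 31 fell, against 22.0% and 17.7% of all genes. Their median log2 change was 0.71, a factor of 1.64. The median level of the list was 3.05, 2.93 and 2.96 (log2 scale) in the 24 h libraries and 3.90, 3.94 and 3.58 in the 48 h libraries. All 48 h libraries lay above all 24 h libraries, with replicate 3 the lowest of them.

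Genes lowered at 1 h were the mirror image. Of 360 genes lowered in T2 at 1 h (2.00%), 246 fell in T1 from 24 to 48 h and 5 rose, with a median log2 change of -0.89. The median level of this list was 4.28, 4.67 and 4.51 at 24 h and 3.48, 3.55 and 3.69 at 48 h. These groups did not overlap either. The lists of 6 and 12 h gave weaker versions of the same pattern. Of 921 genes raised at 6 h (5.11%) 375 rose and 53 fell, and of 1232 lowered (6.84%) 428 fell and 107 rose. At 12 h, 597 of 1532 raised genes (8.50%) rose and 85 fell, and 672 of 1741 lowered genes (9.66%) fell and 133 rose.

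The 24 h lists had small medians in the T1 step. Of 434 genes raised in T2 after 24 h of salt (2.41%), 126 rose in T1 between 24 and 48 h, 84 fell and 224 were not called. The median log2 change was 0.15, with quartiles of -0.51 and 0.79. Of 410 genes lowered in T2 at 24 h (2.27%), 98 fell in T1 and 67 rose, with a median of -0.08. These shares are nearer to those of all genes than the shares of the other lists. With equal totals, where the median of all genes was 0.21, the second median was 0.11, so its sign depends on scaling. Single T1 libraries moved it too: leaving out replicate 1 at 24 h gave -0.20, replicate 2 at 24 h gave -0.002 and replicate 3 at 48 h gave -0.13. Under equal totals 89 genes of this second list rose and 76 fell. These were 21.7% and 18.5% of the list, against 35.2% and 9.5% of all genes.

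The 48 h lists rejoined the pattern of 1 h. Of 1157 genes raised in T2 at 48 h (6.42%), 610 rose in the T1 step and 24 fell, with a median log2 change of 0.71. Of 1088 lowered (6.04%), 591 fell and 28 rose, with a median of -0.78. Under equal totals 709 of the raised genes rose and 15 fell, and 42 of the lowered genes rose and 476 fell. Of the genes raised at 1 h, 657 then rose and 19 fell, and of those lowered 8 rose and 209 fell. Of all genes, 35.2% rose and 9.5% fell under this scaling. The directions of the 1 and 48 h lists thus held.

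**Figure D3:**
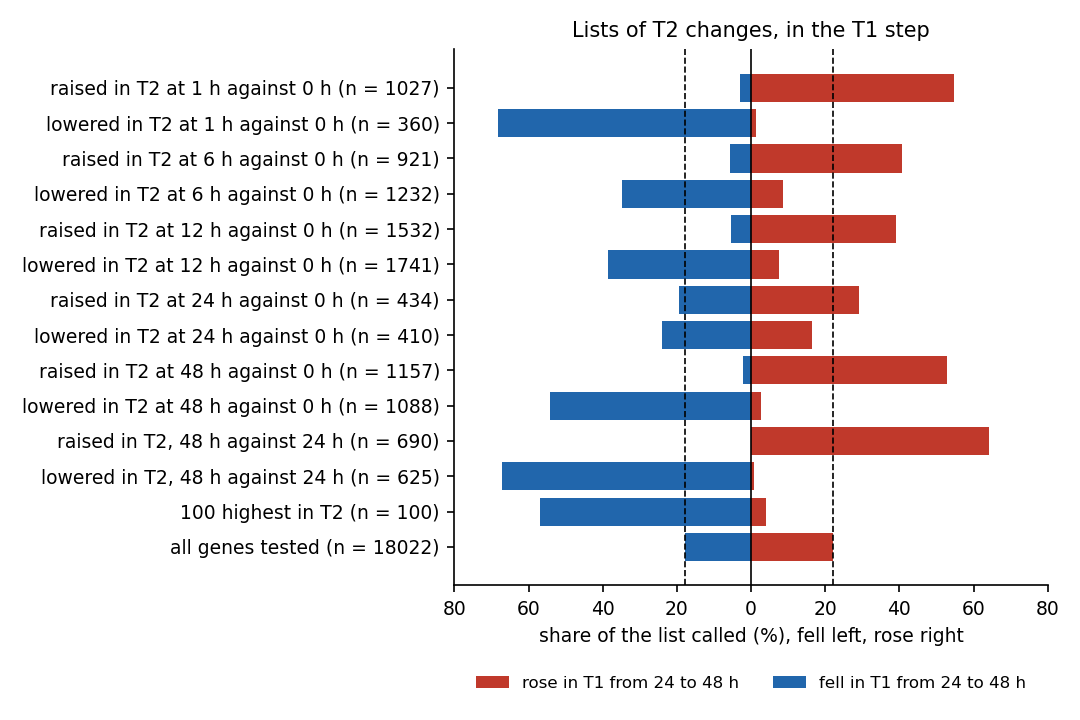
Share of each list called in the T1 step from 24 to 48 h, with genes that rose to the right in red and genes that fell to the left in blue; lists are defined by T2 changes among the tested genes and dashed lines mark all 18022 genes (22.0% rose, 17.7% fell). The 1 and 48 h lists reach far past the lines on their own side, while the 24 h lists stay near the lines on both sides.

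The course of the genes with at least 2-fold changes was followed through all 7 times. In T1 the 918 genes that rose started from a median level (log2 scale) of 2.54 ± 0.10 (SD over 3 libraries). After 1 h of the second salt it was 3.47 ± 0.11 and after 12 h it was 3.59 ± 0.18, before a return to 2.79 ± 0.06 on the first day and 4.48 ± 0.34 on the second. The 24 and 48 h values of T1 chose these genes, whereas the T2 levels did not. There the same genes stood at 2.71 ± 0.07 before salt and 3.96 ± 0.01 after its first hour, and then at 2.85 ± 0.19 on the first and 3.94 ± 0.03 on the second day. The genes thus had low levels at 0 and 24 h and higher ones at 1 and 48 h in T2 as well.

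The 822 genes that fell ran the other way. In T2 their median level started from 4.20 ± 0.09. It was 3.65 ± 0.32 after 1 h and 3.35 ± 0.13 after 12 h of salt, then 4.07 ± 0.04 on the first day and 3.13 ± 0.15 on the second. In T1 the start was 4.25 ± 0.12, the first day 4.12 ± 0.23 and the second 2.61 ± 0.22. Over all genes tested the median stayed between 3.89 and 3.97 in every group. The times 0, 24 and 48 h share the time of day. In T1 the difference between 24 and 48 h chose these sets and is no result. In T2 the 48 h level of both sets differed from those at 0 and 24 h at the same hour. The cause was not tested.

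**Figure D4:**
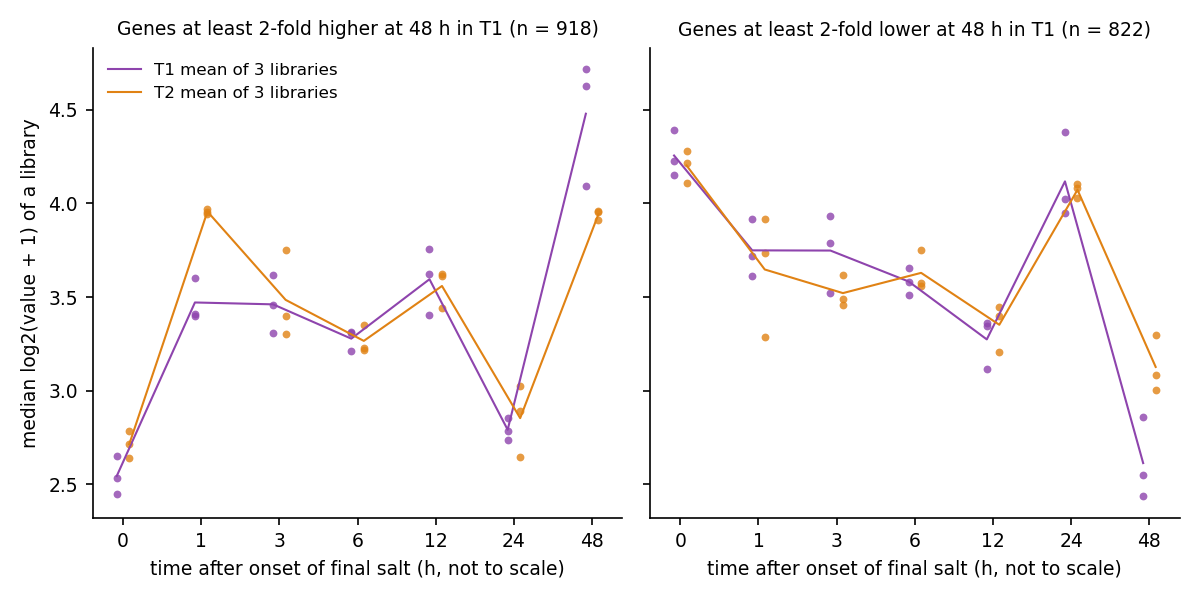
Median log2(value + 1) of the 918 genes at least 2-fold higher (left) and the 822 at least 2-fold lower (right) at 48 h against 24 h in T1, in every library (points) with group means (lines), T1 purple and T2 orange. The T2 libraries, whose levels did not choose the genes, show levels of 2.85 at 24 h and 3.94 at 48 h on the left and of 4.07 and 3.13 on the right.

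Whether the second day brought the same changes without pre-conditioning was asked with the T2 step, which shares no library with the T1 step. It called 5915 genes (32.8%), with 2918 higher (16.2%) and 2997 lower (16.6%), against 7161 (39.7%) in the T1 step. Which step had more calls depended on the fit. With only the compared groups fitted, 6936 genes were called in T2 and 6476 in T1. With a replicate block in that fit the counts were 5828 and 5277. The T1 and T2 calls overlapped far more in the same than in opposite directions. Of the 3964 genes that rose in T1, 1583 also rose in T2 (39.9% of the T1 list, 54.2% of the T2 list), and 73 fell. Of the 3197 that fell, 1573 also fell in T2 (49.2% and 52.5%), and 23 rose. Including genes not called, 81.7% of the T1 risers had a T2 change above 0 and 87.9% of the T1 fallers one below 0, where all genes split at 50.2% and 49.8%.

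Changes in T2 were smaller for genes picked in T1. The 918 larger risers had a median log2 change of 1.34 in T1 against 0.71 in T2. For the 822 larger fallers the medians were -1.31 and -0.90. Choosing genes by T1 values raises the T1 figures, and the reverse choice gave the reverse order: 690 genes raised at least 2-fold in the T2 step had medians of 1.38 in T2 and 1.00 in T1, and 625 lowered genes -1.41 and -1.09. Of those 690, 443 rose in T1 and 1 fell, and of the 625, 420 fell and 5 rose. Across the 18022 genes the steps had Pearson's r = 0.653 and Spearman's rho = 0.597. Genes are not independent replicates, so this is a description.

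The difference between the steps was tested gene by gene and called in 1459 genes (8.10%). In 1100 of them (6.10%) the T1 step was the higher one and in 359 (1.99%) the lower one. The 1100 genes had median log2 changes of 0.58 in T1 and -0.11 in T2: 852 had risen in T1, of which 717 were not called in T2, 62 had risen in T2 too and 73 had fallen there. Another 227 were called only as falls in T2. The median level of the 1100 was 4.45, 4.51 and 4.49 in the T1 24 h libraries and 5.13, 5.01 and 4.83 at 48 h, against 4.62, 4.59 and 4.70 and then 4.42, 4.47 and 4.45 in T2. The T1 libraries at 48 h thus stood above all the others, and replicate 3 was again the lowest of them.

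The 359 genes with a lower T1 step had medians of -0.46 in T1 and 0.39 in T2. Of these, 208 had fallen in T1, 177 of them without a call in T2, and 132 were called only as rises in T2. Their median level went from 3.74, 3.86 and 3.88 to 3.17, 3.27 and 3.42 in T1 and from 3.53, 3.59 and 3.52 to 3.96, 3.93 and 3.90 in T2. All 73 genes that rose in T1 and fell in T2, and all 23 that did the opposite, were among the genes whose steps differed. Opposite calls in the same fit make a called difference nearly certain, so this is no separate result. The sets of 1100 and 359 genes were picked for the difference, so their levels are a description.

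The number of genes with differing steps depended on single libraries. Among the T1 libraries at 48 h, leaving out replicate 1 gave 524 genes, replicate 2 gave 923 and replicate 3 gave 2039. Leaving out replicate 3 of T2 at 24 h gave 693, and replicate 1 of T2 at 48 h gave 808. A group with 1 library left out holds 2, so these fits are also smaller. The share in which the T1 step was higher was 75.4%, but 60.7% (1148 against 743 genes) in a fit to only the 4 groups and 57.9% (703 against 511) when that fit had a replicate block, and 66.5% to 84.4% over the scalings.

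**Figure D5:**
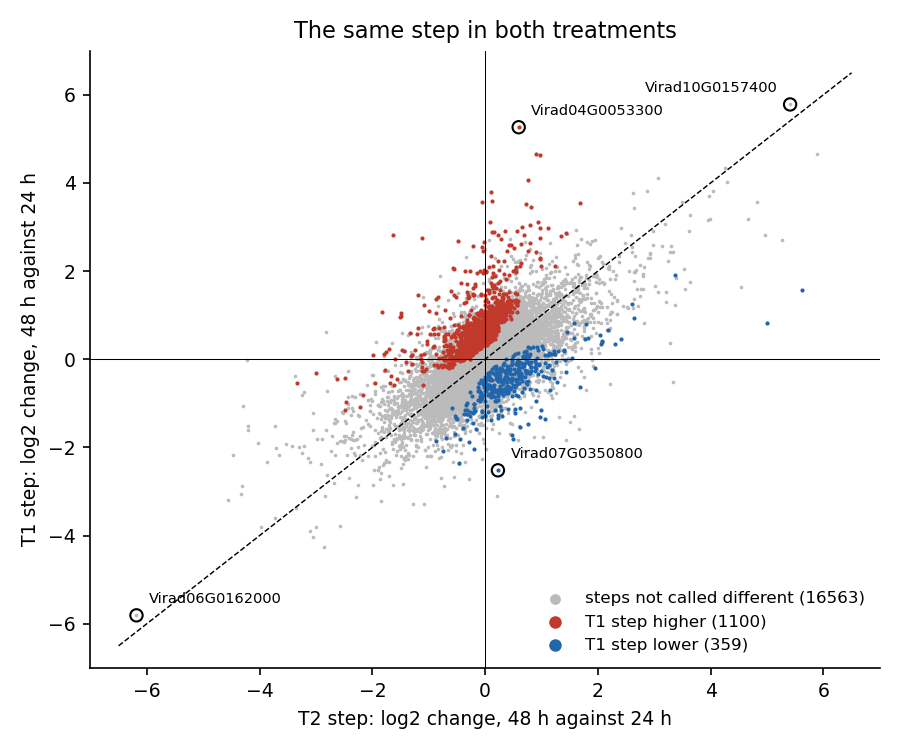
Log2 change from 24 to 48 h in T2 (x axis) and T1 (y axis) for 18022 genes, with the dashed line marking equal steps; red points are 1100 genes whose T1 step was higher, blue points 359 whose T1 step was lower, and circles the 4 genes described. The cloud runs along the dashed line with r = 0.653.

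IDs with a Pt prefix were uneven between libraries. All 26 passed the filter, and 3 rose (11.5%, against 22.0% of all genes), 2 fell (7.69%, against 17.7%) and 21 were not called. Their summed signal was 64730, 1848 and 3106 at 24 h and 7306, 2274 and 2345 at 48 h, so 1 library at 24 h held most of it and the groups overlapped. The median log2 change of the 26 was 0.00, and 0.49 without T1 24 h replicate 1. Of 44 IDs with an Mt prefix 3 passed the filter, and 1 of these fell. With T1 24 h replicate 1 left out, 6114 genes were called over the whole table in place of 7161.

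No numbered ID series stood far from the rest. The share of tested genes that rose ran from 20.1% (series 2) to 23.7% (series 10), and the share that fell from 16.4% (series 11) to 19.6% (series 1). Within a series, genes with consecutive numbers moved together more often than the average gene moved. Of the 602 genes at least 2-fold higher whose next ID was also tested, 59 (9.80%) had a next ID in the same set, against 5.02% of all 12007 such pairs. For the genes at least 2-fold lower it was 59 of 547 (10.8%), against 4.30%. Runs of at least 3 consecutive IDs in the same set numbered 5 among the risers and 8 among the fallers, the longest being 4 and 5 IDs. Whether neighbouring IDs are copies that share reads was not tested, and these shares are a description.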

How the data were processed

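Leaf poly(A) RNA was sequenced on the DNBSEQ platform, per the labels' protocols. The submitters' processing notes name fastp 1.0.1, HISAT2 2.2.1, featureCounts and DESeq2 1.48.2. No build or annotation is named in the sources used here. The deposited values are a normalized expression signal per gene ID and library. The authors call them TPM, a unit that divides by gene length and depth, but columns sum to between 783218 and 1228250 where TPM would share 1 total, and no source says how they were scaled. Among genes seen in few libraries, 914 low values were compared with the smallest step of their gene. With a factor per library 96.9% came out whole (within 0.1), against 10.5% with no factors. This gives relative depth; absolute depth is unknown, so no counting interval is given.

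Genes reaching a value of 1 in 3 or more of the 6 T1 libraries at 24 and 48 h were tested as log2(value + 1). One mean per group was fitted to all 42 libraries with limma 3.58.1 in R 4.3.3 (robust trend, 28 residual degrees of freedom), with two-sided p-values adjusted by Benjamini-Hochberg over 18022 genes and a threshold of 0.05. The design text calls the replicates biological; whether each is 1 plant or a pool is not given, and p-values measure the spread between these libraries. With 3 against 3, a permutation test of a single gene cannot go below 0.1. The fit was tested on simulated data. Summaries used pandas 2.3.3, numpy 2.4.6 and scipy 1.17.1 under Python 3.11.15, with figures from matplotlib 3.10.9. The comparison, lists and tests were chosen with earlier results of these data known. Genes printed were the largest change in each direction, and the largest difference of steps in each direction, among called genes with a mean of at least 5 in the higher group, no overlap of values, and a call without each of the 6 libraries. Alternatives were other pseudocounts (0.1, 0.5), filters, scalings, a replicate block, other moderation, fits restricted to the compared groups, and left-out libraries.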

Additional observations from a re-analysis of the deposited data

Results flagged for a closer look

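The change from 24 to 48 h differed between pre-conditioned and directly salted leaves, by a test of the difference itself, in 1459 genes (8.10%). That count ran from 524 to 2039 with 1 library left out. Virad04G0053300 and Virad07G0350800 were chosen for such differences. The largest among the genes described was that of Virad04G0053300, whose T1 step exceeded the T2 step by 4.67 on the log2 scale. This gene passed the filter only through T1 at 48 h. For Virad07G0350800 the T1 step was the lower one, by -2.75 on the log2 scale, a call that was lost in 11 of 12 fits with 1 library left out.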

How the results depend on the processing

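The count of genes changed in T1 (7161) stayed between 5277 and 8044 over all alternatives run, and 5414 to 7034 with 1 of the 6 libraries left out. The T2 count (5915) was 4371 to 5101 with 1 library left out, and the count of differing steps (1459) was 524 to 2039. The correlation of the steps (0.653) was 0.622 without a filter on low values, 0.601 without the 3 libraries high in Pt signal, and 0.622 to 0.674 with 1 library left out; the cause was not tested. The difference of steps of Virad06G0162000 changed sign to -0.55 without T1 24 h replicate 3 and to -0.05 without T2 24 h replicate 3, ran from -0.55 to 1.28 over all 12 libraries left out in turn, and was called in none of those 12 fits.

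Whether replicate numbers pair the samples cannot be settled from 3 libraries per group. Deviations of same-numbered T1 libraries at 24 and 48 h correlated at 0.21, -0.06 and 0.02, and of T2 libraries at 0.05, -0.14 and -0.03. Differently numbered libraries ran from -0.15 to 0.16 in T1 and from -0.13 to 0.12 in T2. With a replicate block in the fit to all libraries, 7046 genes were called in T1, 5788 in T2 and 1383 for the difference; with the block and the compared groups alone, 5277, 5828 and 1214. Without the block the smaller fit gave 6476, 6936 and 1891. Scaling to equal totals moved the median of all genes by more than 0.1, so changes under it are relative to 0.21. Absolute depth is unknown, so the reads behind a low value cannot be given.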
